A study of Mus musculus with 8 samples.

Results

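The genes described here are 6 myosin light chains (Myl1, Myl2, Myl3, Myl4, Myl7 and Myl9) and 2 myosin light chain kinases (Mylk and Mylk3), 8 of the 19938 genes measured in mouse hearts. They were taken by symbol, from probe sets annotated with exactly 1 of these symbols, and each gene had 1 such probe set. RNA from 8 hearts was hybridized to 1 Affymetrix array each, from separate animals, with 2 arrays in each of 4 groups. S105A PE (arrays 7 and 8) were mice homozygous for S105A, a serine-to-alanine substitution in the cardiac transcription factor GATA4, given PE. S105A untreated (arrays 5 and 6) carried the same substitution and had no PE. WT PE (arrays 3 and 4) and WT untreated (arrays 1 and 2) were wild-type mice with and without PE. All mice were 9 weeks old and on a C57Bl6 background, and PE, which the labels spell out as pseudoephedrine, was released for 5 days by an osmotic pump under the skin, at a daily dose of 100 mg per kg. The protocol names saline as the alternative, whereas the titles call those mice untreated, and the labels give the tissue both as whole heart and as ventricle.

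Myosin light chains wrap around the neck of the myosin heavy chain, where essential chains stiffen the lever arm and regulatory chains tune its motion once a kinase has phosphorylated them. In the adult mouse heart the ventricle uses the regulatory chain encoded by Myl2 and the essential chain encoded by Myl3, and the atrium uses Myl7 and Myl4. Mylk3 encodes the kinase of cardiac muscle, Mylk that of smooth muscle and non-muscle cells, Myl9 the regulatory chain of smooth muscle and Myl1 the essential chain of fast skeletal muscle.

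The 2 PE arrays of each genotype were unlike. On the first principal component, with 69.5% of the variance, WT PE array 3 lay at 53.3 and S105A PE array 7 at 25.1, against -0.4 and -5 for their partners and -20.8 to -16.1 for the untreated arrays, so results are also given without arrays 3 and 7. The mean of 11 fibroblast markers was 10.97 and 10.14 in S105A PE, 9.10 and 9.155 in S105A untreated, 11.31 and 10.05 in WT PE, and 9.15 and 9.27 in WT untreated. The mean of 9 macrophage markers was 9.37 and 8.68 in S105A PE, 8.08 and 8.10 in S105A untreated, 9.80 and 8.90 in WT PE, and 8.22 and 8.45 in WT untreated. For both lists the 4 PE arrays lay above the 4 untreated ones and arrays 3 and 7 were highest. The fibroblast markers were uneven, with PE differences averaged over genotypes from 0.14 to 3.06. The widest were Postn (3.06) and Col1a1 (2.38), at 2.34 and 1.58 without arrays 3 and 7. In bulk tissue, fewer cells of a type and less RNA per cell cannot be told apart. The substitution changes 1 residue, so the level of Gata4 RNA does not check the genotype. Values below are log2 expression, and no gene's level is set against another's.

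Sequence before a start site of 5 of the genes is shown because GATA4 binds GATA sequences and serum response factor, a regulator of muscle genes, binds the CArG box. Each line runs 5′ to 3′ and ends at the base before a RefSeq start site (assembly GRCm38.p6), or for Myl9 at the base before the annotated gene, and capitals mark a match to a GATA motif or to the CArG box, searched on both strands. The GATA motif was taken as AGATAA, as the form AGATAG, as the further form TGATAA, or finally as TGATAG.
Myl2 chr5:122092474-122092723 plus strand: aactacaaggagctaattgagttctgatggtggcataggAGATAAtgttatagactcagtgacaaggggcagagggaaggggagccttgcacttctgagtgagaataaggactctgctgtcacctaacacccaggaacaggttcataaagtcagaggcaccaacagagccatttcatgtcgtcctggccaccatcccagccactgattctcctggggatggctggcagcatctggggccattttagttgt
Myl3 chr9:110763428-110763677 plus strand: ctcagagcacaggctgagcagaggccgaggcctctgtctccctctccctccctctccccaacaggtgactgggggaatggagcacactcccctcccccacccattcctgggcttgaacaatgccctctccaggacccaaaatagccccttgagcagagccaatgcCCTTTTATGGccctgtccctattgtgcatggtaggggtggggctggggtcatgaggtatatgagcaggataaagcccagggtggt
Myl7 chr11:5898783-5899032 minus strand: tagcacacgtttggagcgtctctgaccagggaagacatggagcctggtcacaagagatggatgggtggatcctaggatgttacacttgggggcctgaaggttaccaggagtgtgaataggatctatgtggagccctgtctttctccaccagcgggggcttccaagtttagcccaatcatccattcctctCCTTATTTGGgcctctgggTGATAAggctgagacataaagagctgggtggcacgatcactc
Mylk3 chr8:85381042-85381291 minus strand: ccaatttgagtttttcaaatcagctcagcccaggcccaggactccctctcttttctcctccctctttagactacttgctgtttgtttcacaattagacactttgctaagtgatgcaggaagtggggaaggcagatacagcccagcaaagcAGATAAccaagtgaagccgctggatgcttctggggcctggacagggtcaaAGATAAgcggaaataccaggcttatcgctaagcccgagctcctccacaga
Myl9 chr2:156775214-156775407 plus strand: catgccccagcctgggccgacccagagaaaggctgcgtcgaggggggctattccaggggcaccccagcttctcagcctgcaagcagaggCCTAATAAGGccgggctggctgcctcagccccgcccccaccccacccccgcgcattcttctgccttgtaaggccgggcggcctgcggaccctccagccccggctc

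All 8 genes had an entry, with 10 start sites in all, some of them inside the annotated gene. The Mylk3 window shown and the windows of Myl1, Myl4 and Mylk lay within the annotated gene. The further windows of Mylk3 and Myl2 did so too. A GATA match lay within 250 bases before a start site of 4 genes (Myl1, Myl2, Myl7 and Mylk3), in 5 of the 10 windows, against 26.5% of all 32851 windows of the mouse table. A CArG box lay before the start sites of Myl3, Myl7 and Myl9, in 3 of 10 windows against 1.47% of all. Each window shown held a match, whereas the windows of Myl4 and Mylk and another window of Myl2 held neither motif. The Mylk3 window shown held 2 GATA matches, which began 100 and 50 bases before the start site, and that of Myl7 held a CArG box from base 61 and a GATA match from base 42, which did not overlap. These matches describe letters only. The build behind the array annotation is not given in the sources used here, and gene positions below are those of GRCm38.p6.

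The ventricular regulatory chain, Myl2 (probe set 10525343, chr5:122092724-122113473), was at 13.42 and 13.50 in S105A PE, 13.55 and 13.62 in S105A untreated, 12.93 and 13.48 in WT PE, and 13.51 and 13.46 in WT untreated. Array 3 alone lay low, and the other 7 arrays stood within a narrow band. In S105A both PE values lay below both untreated values, and in WT the groups overlapped. The PE difference was -0.13 (SE 0.17, 95% interval -0.525 to 0.27, limma adjusted p = 0.844) in S105A and -0.28 (SE 0.17, 95% interval -0.68 to 0.12, limma adjusted p = 0.478) in WT. With arrays 3 and 7 left out these differences were -0.084 and -0.010.

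Myl3, the ventricular essential chain (probe set 10589602, chr9:110763678-110769802), was at 13.44 and 13.51 in S105A PE, 13.59 and 13.61 in S105A untreated, 12.77 and 13.54 in WT PE, and 13.56 and 13.52 in WT untreated. Again array 3 was the low one, 0.765 below array 4 of its own group. In S105A the PE values lay below the untreated ones, and in WT the groups overlapped. The PE difference was -0.125 (SE 0.22, 95% interval -0.65 to 0.40, limma adjusted p = 0.883) in S105A and -0.39 (SE 0.22, 95% interval -0.91 to 0.14, limma adjusted p = 0.464) in WT, and -0.089 and -0.004 without arrays 3 and 7. The mean of 12 other cardiomyocyte markers was 12.86 in array 3 and 13.02 to 13.04 in the 7 other arrays, and its part in the array 3 values was not tested.

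**Figure D1:**
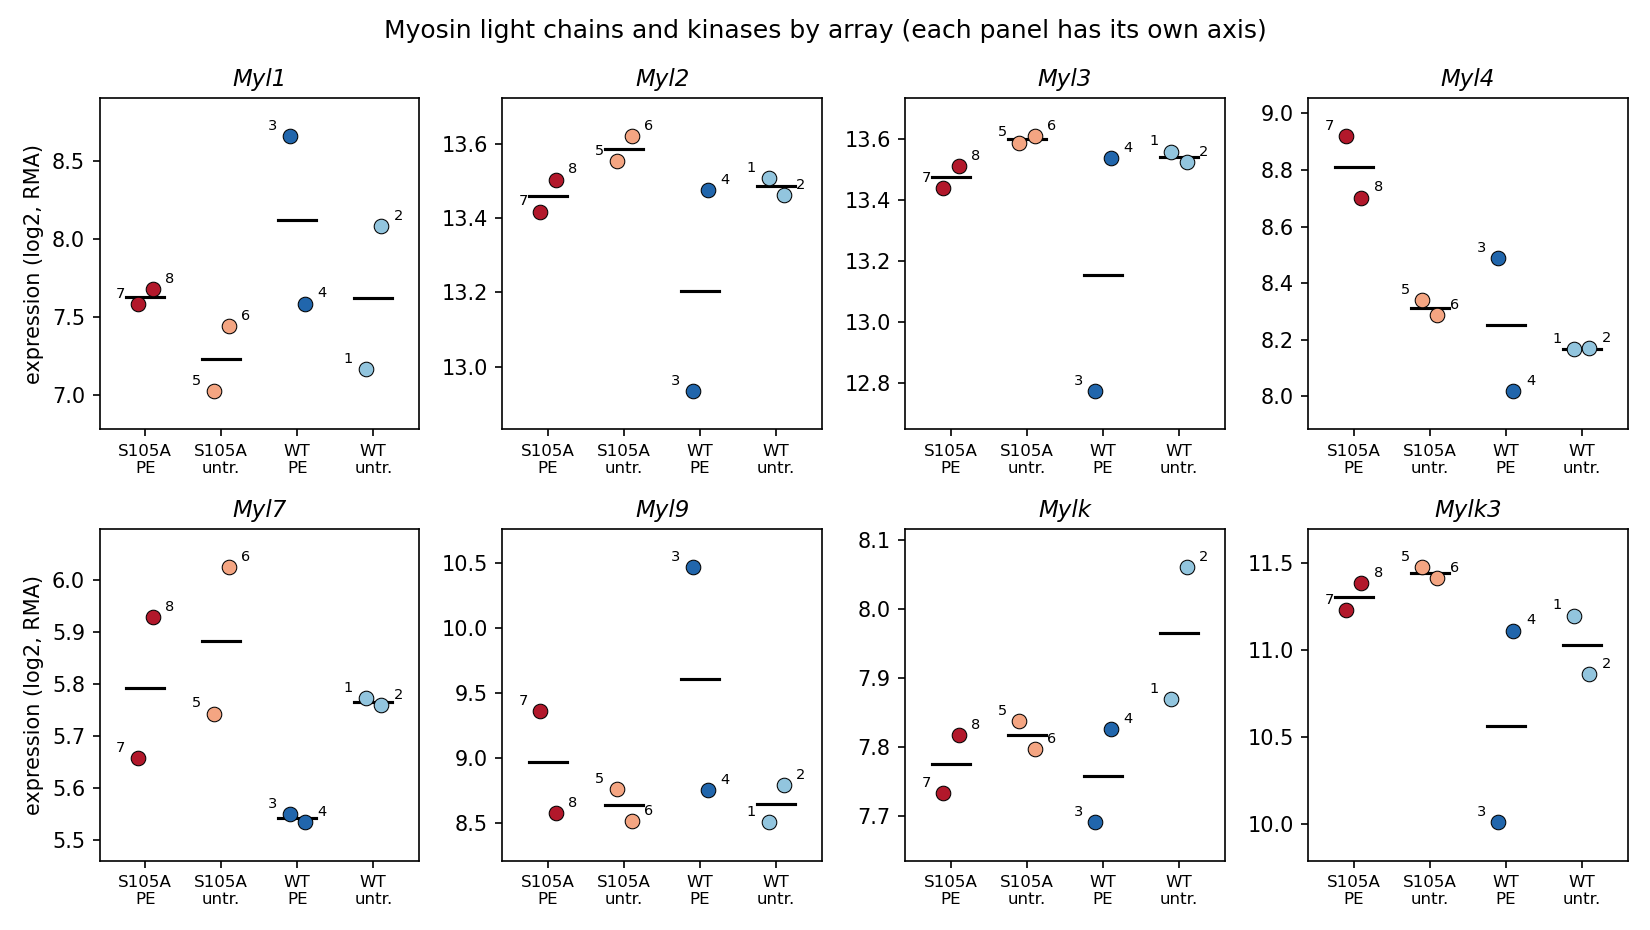
Expression (log2, RMA) of each gene in the 8 arrays, 1 panel per gene with its own vertical axis; points are single arrays labelled with their number, black lines are group means, and untr. stands for untreated. Array 3 of WT PE lay lowest for Myl2, Myl3, Mylk3 and Mylk (12.93, 12.77, 10.01 and 7.69) and highest for Myl9 and Myl1 (10.46 and 8.66). Both S105A PE arrays lay highest for Myl4 (8.92 and 8.70).

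The atrial chains, Myl4 and Myl7, had averaged PE differences of 0.29 and -0.16, and the gap between them was not tested. Under PE, S105A minus WT was positive for both, at 0.56 and 0.25. Myl4, the atrial essential chain (probe set 10381798, chr11:104546017-104587215), was at 8.92 and 8.70 in S105A PE, 8.34 and 8.29 in S105A untreated, 8.49 and 8.02 in WT PE, and 8.17 and 8.17 in WT untreated. Both S105A PE arrays lay above the other 6, and the WT PE arrays lay on either side of the WT untreated ones. The PE difference was 0.50 (SE 0.16, 95% interval 0.12 to 0.87, limma adjusted p = 0.765) in S105A, a 1.41-fold difference with an unadjusted p of 0.0172 that did not pass over all genes, and 0.085 (SE 0.16, 95% interval -0.29 to 0.46, limma adjusted p = 0.837) in WT. S105A minus WT, these PE effects differed by 0.41 (SE 0.22, 95% interval -0.12 to 0.95, limma adjusted p = 1.00). When arrays 3 and 7 were left out the PE difference was 0.39 in S105A (limma adjusted p = 0.354) and -0.15 in WT, so its sign in WT depended on array 3.

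Myl7, the atrial regulatory chain (probe set 10384044, chr11:5896637-5898782), was at 5.66 and 5.93 in S105A PE, 5.74 and 6.02 in S105A untreated, 5.55 and 5.53 in WT PE, and 5.77 and 5.76 in WT untreated. In WT both PE arrays were below both untreated arrays, and in S105A the groups overlapped. PE differed from untreated by -0.091 (SE 0.13, 95% interval -0.40 to 0.21, limma adjusted p = 0.854) in S105A and -0.22 (SE 0.13, 95% interval -0.53 to 0.081, limma adjusted p = 0.463) in WT, and 0.044 and -0.23 without arrays 3 and 7. Every Myl7 value lay below the median of its array (6.18 to 6.23), and no detection call was used.

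The mean of the other atrial markers was 8.00 and 8.00 in S105A PE, 7.86 and 7.805 in S105A untreated, 7.80 and 7.92 in WT PE, and 7.87 and 7.87 in WT untreated. The S105A PE arrays were highest in this mean, which includes Nppa. They were also highest in the mean of the 12 ventricular markers, at 9.383 and 9.388, with WT PE array 4 at 9.381. The ranking was therefore not particular to the atrial list. Nppa was at 13.76 and 13.08 in S105A PE, 10.73 and 10.915 in S105A untreated, 13.95 and 12.92 in WT PE, and 11.11 and 11.84 in WT untreated. In S105A, 5 of the measured atrial markers were higher and 8 lower with PE, with a median of -0.03. Of 14 listed atrial markers 13 were measured, 7 higher and 6 lower with PE on the average of the genotypes and 0 past the threshold by limma (1 higher and 2 lower at an unadjusted p under 0.05, where 16.7% of all genes lay). Without arrays 3 and 7, 1 of the 13 passed, Nppa (limma adjusted p = 0.0189). The median PE difference over the 13 was 0.003 (-0.022 without arrays 3 and 7), against -0.017 over all genes. The widest were Nppa (2.28), the atrial natriuretic peptide gene that stressed ventricles also express, Dkk3 (0.89), the potassium channel gene Kcnj3 (-0.87) and Stard10 (-0.59), and without arrays 3 and 7 these values were 1.85, 0.16, -0.29 and -0.19.

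The ratio of the atrial to the ventricular form was followed within each array, as a shift in log2 from its mean in WT untreated. For the regulatory chains, Myl7 over Myl2, the shift was -0.040 and 0.14 in S105A PE, -0.092 and 0.12 in S105A untreated, 0.34 and -0.22 in WT PE, and -0.016 and 0.016 in WT untreated. The groups overlapped throughout, and every Myl7 value behind this ratio lay below the median of its array. In array 3 both genes lay below their WT untreated means, Myl2 by -0.55 and Myl7 by -0.22. For the essential chains, Myl4 over Myl3, the shift was 0.85 and 0.56 in S105A PE, 0.12 and 0.050 in S105A untreated, 1.09 and -0.15 in WT PE, and -0.019 and 0.019 in WT untreated. The S105A PE arrays were the higher pair in that genotype, whereas the WT PE arrays spanned the WT untreated ones. Against the WT untreated means, Myl4 was at 0.75 and 0.53 and Myl3 at -0.10 and -0.031 in S105A PE. In array 3 Myl4 was at 0.32 and Myl3 at -0.77. The essential ratio averaged 0.71 ± 0.20 in S105A PE and 0.086 ± 0.052 in S105A untreated (SD, 2 arrays each), and 0.47 ± 0.87 in WT PE against 0 ± 0.027 in WT untreated. The ratios combine genes already described and were given no test.

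**Figure D2:**
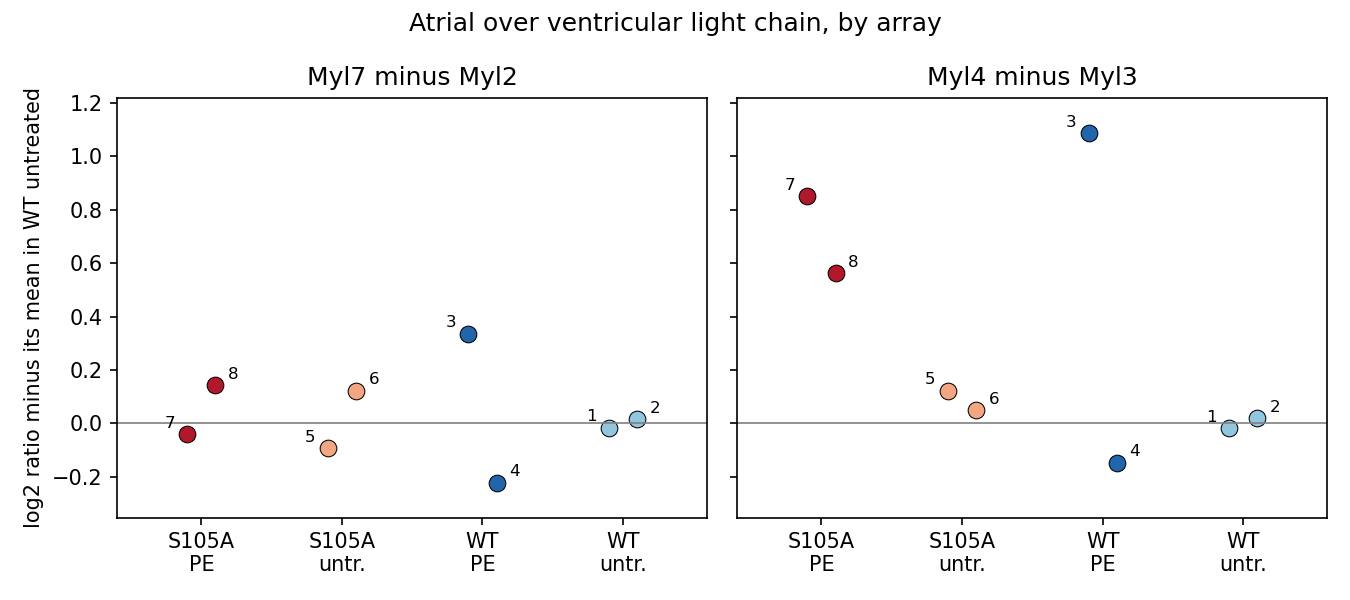
Log2 ratio of the atrial to the ventricular light chain in each array, minus its mean in the WT untreated arrays; the left panel shows the regulatory chains (Myl7 over Myl2), the right panel the essential chains (Myl4 over Myl3), points are arrays with their numbers, and untr. stands for untreated. The essential ratio was 0.85 and 0.56 in S105A PE and 1.09 and -0.15 in WT PE, and the regulatory ratio lay between -0.22 and 0.34 in all 8 arrays.

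Mylk3, the cardiac kinase that phosphorylates the ventricular regulatory chain (probe set 10580349, chr8:85324928-85386340), was at 11.23 and 11.38 in S105A PE, 11.475 and 11.41 in S105A untreated, 10.01 and 11.11 in WT PE, and 11.20 and 10.86 in WT untreated. All 4 S105A arrays lay above all 4 WT arrays, although the lowest S105A value and the highest WT value nearly met. Such a separation was seen in 3.12% of all genes and in 1 of the 8 genes here. Averaged over treatments, S105A minus WT was 0.58 (SE 0.23, 95% interval 0.032 to 1.13, limma adjusted p = 0.927), a 1.495-fold difference with an unadjusted p of 0.0409 that did not pass over all genes. This value was 0.34 (limma adjusted p = 0.513) without arrays 3 and 7.

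With PE, Mylk3 differed by -0.14 (SE 0.325, 95% interval -0.91 to 0.64, limma adjusted p = 0.911) in S105A, where both PE arrays lay below both untreated arrays, and by -0.47 (SE 0.325, 95% interval -1.245 to 0.305, limma adjusted p = 0.531) in WT, where the groups overlapped. The WT PE arrays were 1.10 apart. Leaving out arrays 3 and 7 gave -0.062 in S105A and 0.082 in WT, the WT value with the opposite sign.

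Mylk, the smooth muscle and non-muscle kinase (probe set 10435345, chr16:34745199-35002436), had the narrowest range of the 8 genes, 0.37. It was at 7.73 and 7.82 in S105A PE, 7.84 and 7.80 in S105A untreated, 7.69 and 7.83 in WT PE, and 7.87 and 8.06 in WT untreated. In WT both PE arrays lay below both untreated arrays, and in S105A the groups overlapped. For Mylk the difference with PE was -0.043 (SE 0.099, 95% interval -0.28 to 0.19, limma adjusted p = 0.909) in S105A and -0.21 (SE 0.099, 95% interval -0.44 to 0.028, limma adjusted p = 0.424) in WT, and -0.001 and -0.14 without arrays 3 and 7.

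Myl9, the smooth muscle regulatory chain that Mylk phosphorylates (probe set 10477920, chr2:156775408-156781657), had the widest range, 1.96. It was at 9.36 and 8.57 in S105A PE, 8.76 and 8.51 in S105A untreated, 10.46 and 8.75 in WT PE, and 8.50 and 8.79 in WT untreated. Only arrays 7 and 3 stood out, and their PE partners, arrays 8 and 4, lay among the untreated arrays. The PE difference was 0.33 (SE 0.53, 95% interval -0.93 to 1.59, limma adjusted p = 0.870) in S105A and 0.96 (SE 0.53, 95% interval -0.30 to 2.22, limma adjusted p = 0.452) in WT. Once arrays 3 and 7 were left out, these differences were -0.064 and 0.11.

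Other smooth muscle genes were mixed in the same arrays. Cnn1, the actin-binding protein calponin, was at 8.69 and 7.685 in S105A PE, 7.23 and 6.89 in S105A untreated, 10.46 and 7.67 in WT PE, and 7.30 and 7.43 in WT untreated. Tagln, the related transgelin, was at 9.00 and 8.33 in S105A PE, 8.23 and 8.095 in S105A untreated, 9.89 and 8.42 in WT PE, and 8.02 and 8.21 in WT untreated. For both genes arrays 3 and 7 were highest. Synpo2 and Cald1, which encode further actin-binding proteins, had averaged PE differences of -0.62 and 0.45, and of -0.32 and 0.15 without arrays 3 and 7. The mean of all 16 smooth muscle and pericyte markers was 9.035 and 8.86 in S105A PE, 8.83 and 8.77 in S105A untreated, 9.09 and 8.88 in WT PE, and 8.89 and 8.94 in WT untreated. Of these 16, 8 were higher and 8 lower with PE on the average, with a median of 0.007 (-0.037 without arrays 3 and 7). By limma 0 passed (4 higher and 1 lower at an unadjusted p under 0.05, where 16.7% of all genes lay). The part of fibroblast, macrophage or smooth muscle markers in the Myl9 values of arrays 3 and 7 was not tested.

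**Figure D3:**
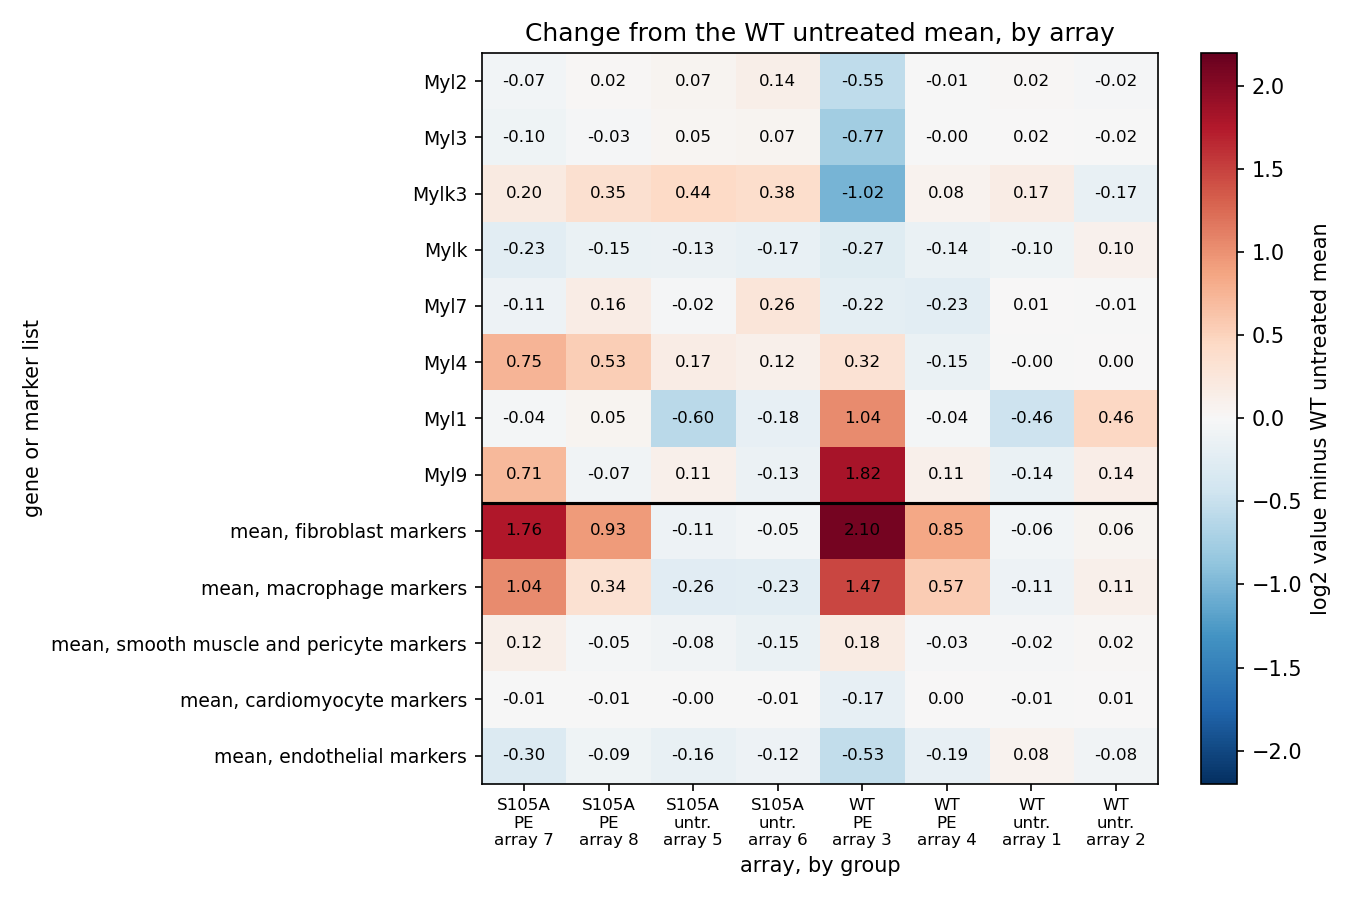
Log2 value of each gene (upper rows) and mean of each marker list (lower rows) in the 8 arrays, minus the mean of the WT untreated arrays; red is higher, blue is lower, each cell gives its value, and untr. stands for untreated. Array 3 had the highest Myl9 and Myl1 and the lowest Myl2, Myl3, Mylk3 and Mylk, beside the highest fibroblast and macrophage marker means of the 8 arrays.

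Myl1, the essential chain of fast skeletal muscle (probe set 10355259, chr1:66924295-66947932), was at 7.58 and 7.68 in S105A PE, 7.03 and 7.44 in S105A untreated, 8.66 and 7.59 in WT PE, and 7.165 and 8.08 in WT untreated. The S105A groups did not overlap, and the WT groups did, with pairs 1.07 and 0.92 apart. The PE difference was 0.40 (SE 0.41, 95% interval -0.58 to 1.37, limma adjusted p = 0.808) in S105A and 0.50 (SE 0.41, 95% interval -0.47 to 1.47, limma adjusted p = 0.599) in WT, and 0.44 and -0.037 without arrays 3 and 7. The mean of 16 skeletal muscle markers lay between 6.48 and 6.705 in all arrays, array 1 lowest and array 3 highest. With PE on the average, 8 of the 16 were higher and 8 lower, with a median of -0.010 (0.053 without arrays 3 and 7). The widest were Acta1, skeletal actin (0.77), the calcium store protein gene Casq1 (0.69), Tnnt3 (0.475) and Atp2a1 (-0.18). Without arrays 3 and 7 these values were 0.55, 0.52, 0.26 and -0.011.

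Side by side, none of the 8 genes was called for PE. By limma 0 of 8 passed an adjusted p of 0.05 in S105A (0% of all genes), in WT (0.00502%) or on the average of the genotypes (0.00502%, the 1 gene Myh7). At an unadjusted p under 0.05, 1 of 8 passed in S105A (Myl4, against 5.86% of all genes), 0 of 8 in WT (11.7%) and 1 of 8 on the average (Myl4, 16.7%). PE and untreated arrays did not overlap for 5 of 8 genes in S105A (45.5% of all genes), 2 of 8 in WT (46.2%) and 0 of 8 over both genotypes (12.9%). On the average 3 genes were higher and 5 lower, where 44% of all genes were higher, with a median of -0.14 (-0.018 without arrays 3 and 7). Leaving out WT PE array 4 instead, so that array 3 stood alone for WT PE, made 4 of 8 pass in WT, where 17.8% of all genes then passed: Myl2 at -0.55 (limma adjusted p = 0.0145), Myl3 at -0.77 (limma adjusted p = 0.00706), Myl9 at 1.82 (limma adjusted p = 0.0114) and Mylk3 at -1.02 (limma adjusted p = 0.00923). On the average those 4 and Myl4 then passed, 5 of 8 against 20.7% of all genes. Without arrays 3 and 7, 0 of 8 passed by limma in S105A (0.15% of all genes), in WT (0.291%) and on the average (0.687%).

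**Figure D4:**
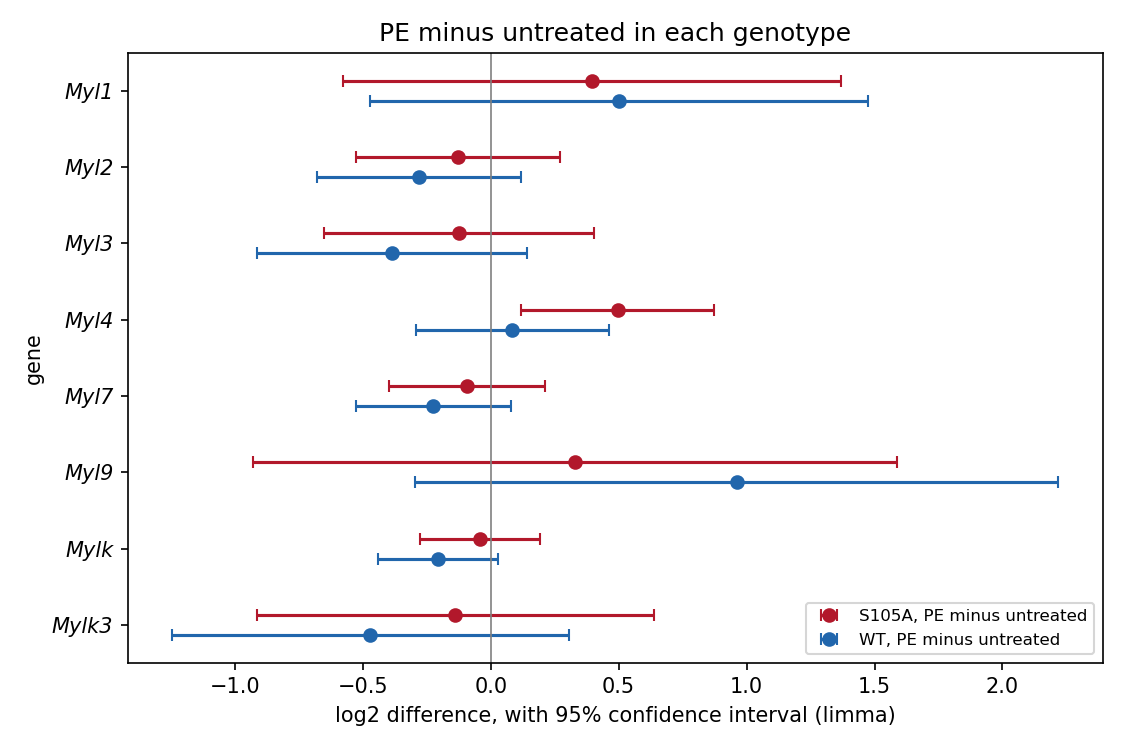
PE minus untreated (log2) for each gene in S105A and in WT, with 95% confidence intervals from limma that are not adjusted for the number of genes. The interval for Myl4 in S105A, 0.12 to 0.87, does not reach 0, and the 15 others do.

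The genotype comparisons gave no call either. Without PE, S105A minus WT ran from -0.39 (Myl1) to 0.41 (Mylk3), and by limma 0 of 8 genes passed the adjusted threshold (0% of all genes) or an unadjusted p of 0.05 (4.96%). S105A and WT untreated arrays did not overlap for 5 of 8 genes (44.5%). With PE the difference ran from -0.64 (Myl9) to 0.75 (Mylk3), and by limma 0 of 8 passed the adjusted threshold (0%). Myl4 differed by 0.56 (SE 0.16, 95% interval 0.18 to 0.93, limma adjusted p = 0.989) under PE and was the 1 of 8 genes with an unadjusted p under 0.05 (2.68%); its value was 0.68 without arrays 3 and 7. Both S105A PE arrays lay above both WT PE arrays for Myl4, Myl7 and Mylk3, 3 of 8 genes (23.6%). Averaged over treatments 0 of 8 passed the adjusted threshold (0.00502%), and Mylk3 and Myl4, with Myl4 at 0.35 (SE 0.11, 95% interval 0.084 to 0.62, limma adjusted p = 0.927), were the 2 with an unadjusted p under 0.05 (4.99%). Without WT PE array 4, 4 of 8 passed under PE, against 3.57% of all genes, with Myl2 at 0.53 (limma adjusted p = 0.0437), Myl3 at 0.70 (limma adjusted p = 0.0230), Myl9 at -1.50 (limma adjusted p = 0.0487) and Mylk3 at 1.30 (limma adjusted p = 0.0192). On the average 2 of 8 then passed, against 1.13% of all genes, with Myl3 at 0.38 (limma adjusted p = 0.0485) and Mylk3 at 0.86 (limma adjusted p = 0.0256). These genotype comparisons share arrays with the PE effects. With array 4 left out, array 3 stood alone for WT PE and was assumed to vary like the other groups. Those counts therefore rest on array 3 for WT PE and do not test for enrichment. With arrays 3 and 7 left out instead, S105A minus WT with PE was 0.027 for Myl2, -0.027 for Myl3, -0.18 for Myl9 and 0.27 for Mylk3.

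Subtracting the WT effect of PE from the S105A one gave values that ran from -0.63 (Myl9) to 0.41 (Myl4), and by limma 0 of 8 genes passed the adjusted threshold (0% of all genes) or an unadjusted p of 0.05 (2.42%). The 95% intervals ran from -2.41 to 1.15 for Myl9 and from -0.30 to 0.56 for Myl7.

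Of the 6 other light chain genes, 5 were higher and 1 lower with PE on the average. By limma 0 passed (1 at an unadjusted p under 0.05, where 16.7% of all genes lay). Myl6, the essential chain of smooth muscle and non-muscle myosin, was at 11.89 and 11.07 in S105A PE, 10.99 and 11.05 in S105A untreated, 12.18 and 11.20 in WT PE, and 11.055 and 10.805 in WT untreated. In each genotype the PE arrays lay above the untreated ones, and arrays 3 and 7 were highest. Its averaged PE difference was 0.61 (SE 0.26, 95% interval 0.002 to 1.22, limma adjusted p = 0.298), and 0.16 without those arrays. The averaged difference was 0.24 for Myl12b and 0.11 for Myl12a, regulatory chains of non-muscle myosin, 0.016 for Myl6b, 0.024 for Myl10 and -0.12 for Mylpf, the fast skeletal regulatory chain.

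Of 23 listed genes that act on light chain phosphorylation 20 were measured, 10 of them higher and 10 lower with PE on the average. By limma 0 passed (4 higher and 0 lower at an unadjusted p under 0.05, where 16.7% of all genes lay), and the median was 0.007. Mylk4, a further gene of the light chain kinase family, was at 9.03 and 10.28 in S105A PE, 10.48 and 10.36 in S105A untreated, 6.80 and 10.55 in WT PE, and 10.71 and 10.76 in WT untreated. In each genotype both PE arrays lay below the untreated ones, and array 3 lay 3.75 below array 4. The averaged PE difference of Mylk4 was -1.41 (SE 0.76, 95% interval -3.23 to 0.41, limma adjusted p = 0.366), and -0.16 without arrays 3 and 7. Its lowest array was also that of Mylk3. For Mylk2, the skeletal muscle kinase, it was 0.14.

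The list also held genes of the myosin phosphatase, which removes the phosphate, and of calmodulin, the kinases' calcium sensor. Ppp1r12b, a targeting subunit of the phosphatase, was at 11.13 and 11.38 in S105A PE, 11.42 and 11.38 in S105A untreated, 10.79 and 11.36 in WT PE, and 11.43 and 11.47 in WT untreated, an averaged PE difference of -0.26 (SE 0.13, 95% interval -0.57 to 0.052, limma adjusted p = 0.344), and of -0.053 without arrays 3 and 7. That difference was -0.025 for Ppp1r12a, -0.043 for Ppp1r12c and -0.14 for the catalytic subunit gene Ppp1cb. Among phosphatase inhibitor genes it was -0.11 for Ppp1r14a, 0.23 for Ppp1r14b (0.11 without arrays 3 and 7) and -0.11 for Ppp1r14c. For Calm2, Calm3 and Calm4 it was 0.12, -0.035 and -0.094.

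Among other kinases, Prkg1, the cGMP-dependent kinase that relaxes smooth muscle, was at 8.06 and 7.745 in S105A PE, 7.60 and 7.51 in S105A untreated, 8.43 and 7.79 in WT PE, and 7.385 and 7.60 in WT untreated. All 4 PE arrays of Prkg1 lay above all 4 untreated ones. A separation in either direction was seen in 4 of the 20 measured phosphorylation genes and in 12.9% of all genes. The averaged PE difference of Prkg1 was 0.48 (SE 0.15, 95% interval 0.12 to 0.85, limma adjusted p = 0.279), and 0.24 without arrays 3 and 7. The averaged difference was 0.47 for the integrin-linked kinase Ilk (0.15 without arrays 3 and 7), 0.16 for the small GTPase Rhoa, -0.096 for its target kinase Rock1 and 0.25 for the citron kinase Cit. It was 0.12 for Dapk3, 0.039 for Cdc42bpa and 0.067 for Cdc42bpb. With arrays 3 and 7 left out, the light chain and phosphorylation genes given here by an averaged difference alone lay between -0.12 (Calm3) and 0.20 (Myl12a).

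Among the heavy chains that the light chains bind, Myh7, the beta chain of slow muscle and the stressed ventricle, was at 10.715 and 10.48 in S105A PE, 8.75 and 8.63 in S105A untreated, 11.33 and 10.89 in WT PE, and 8.29 and 8.52 in WT untreated. It rose with PE on the average of the genotypes, by 2.30 (SE 0.12, 95% interval 2.02 to 2.59, limma adjusted p = 0.00808). Myl3, its essential chain in slow muscle and ventricle, differed by -0.255 (SE 0.16, 95% interval -0.63 to 0.12, limma adjusted p = 0.415) in the same contrast. Of 11 heavy chain genes 6 were higher and 5 lower, 1 passed, and the median was 0.003, with the non-muscle genes Myh10 and Myh9 at 0.70 and 0.66 and Myh7b at -0.34. Without arrays 3 and 7 these were 0.21, 0.29 and 0.044, and Myh7 was at 2.13.

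The genes whose values followed Mylk3, Myl4 or Myl7 most closely were sought among 11956 other genes, after leaving out the lowest 40% by mean level, and are given as a description over 8 arrays that share groups. For Mylk3 they were Tmem14c (Pearson r = 0.988, Spearman rho = 0.952, and r = 0.815 over the 6 other arrays), Phtf2 (Pearson r = 0.985, Spearman rho = 0.905, and r = 0.763 over the 6 other arrays) and Scand1 (Pearson r = 0.984, Spearman rho = 0.976, and r = 0.918 over the 6 other arrays), each lowest in array 3, with arrays 2 and 3 left out for the last value. For Myl4 they were Pqbp1 (Pearson r = 0.965, Spearman rho = 0.929, and r = 0.827 over the 6 other arrays), 1110051M20Rik (Pearson r = 0.934, Spearman rho = 0.786, and r = 0.699 over the 6 other arrays) and Ctse (Pearson r = 0.923, Spearman rho = 0.929, and r = 0.672 over the 6 other arrays), each highest in arrays 7 and 8, which were the arrays left out. For Myl7 they were En1 (Pearson r = 0.971, Spearman rho = 0.976, and r = 0.939 over the 6 other arrays), Nkiras1 (Pearson r = 0.946, Spearman rho = 0.976, and r = 0.945 over the 6 other arrays) and Sox3 (Pearson r = 0.934, Spearman rho = 0.929, and r = 0.88 over the 6 other arrays), with arrays 4 and 6 left out. Myl7 itself lay among the lowest 40% of genes, with a range of 0.49 over the 8 arrays.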

How the data were processed

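Total RNA of 8 hearts was measured on 1 array each. The deposited values are log2 expression, which the authors computed by RMA, according to the submitters' processing notes, where no RMA version appears. RMA gives all arrays a like distribution, which hides any shift common to most transcripts. Of 35557 rows, 21789 carried a single symbol, giving 19938 genes, each read from its brightest probe set by mean. Group means were fitted with limma 3.58.1 (R 4.3.3) and moderated by eBayes, with Benjamini-Hochberg adjustment over every gene per contrast, two-sided, at 0.05. Differences are PE minus untreated or S105A minus WT. With 2 arrays a group, array number sets the precision. The members, lists and alternatives were chosen with earlier results of these data known. Named were all 8 genes, every measured gene of the 2 light chain lists, up to 4 genes per marker list by size of averaged PE difference, and 3 genes most alike in pattern; listed genes without a value are not reported here. Marker lists whose medians are not given above had median averaged PE differences of -0.005 (12 ventricular), -0.005 (12 cardiomyocyte), -0.17 (7 endothelial) and -0.85 (2 of 5 red blood cell genes). For the fibroblast and macrophage lists the medians were 1.87 and 0.97 (1.00 and 0.57 without arrays 3 and 7). The procedure was tested on simulated data. Figures used matplotlib 3.10.9.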

Additional observations from a re-analysis of the deposited data

How the results depend on the processing

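No paired analysis was possible because the labels give the groups no shared replicate numbers. No alternative made any of the 8 genes pass except leaving out an array: counts past the threshold ran from 0 to 4 for PE in WT, 0 to 5 for the averaged PE effect, 0 to 4 for S105A minus WT with PE and 0 to 2 for the averaged genotype difference, each maximum without WT PE array 4, which left array 3 as the lone WT PE array, assumed to vary like the other groups. Differences that changed sign when 1 array was left out, or in the settings named below, had these ranges over the settings that left out arrays. For PE in WT the range was -0.037 to 1.037 for Myl1, -0.15 to 0.319 for Myl4 and -1.022 to 0.082 for Mylk3. For PE in S105A the range was -0.232 to 0.05 for Myl7 and -0.064 to 0.721 for Myl9. For PE averaged over genotypes the range was -0.58 to 0.01 for Mylk3. For S105A minus WT untreated the range was -0.154 to 0.135 for Myl9, -0.849 to 0.069 for Myl1 and -0.023 to 0.258 for Myl7. For S105A minus WT with PE the range was -1.031 to 0.091 for Myl1, -0.015 to 0.527 for Myl2, -0.063 to 0.702 for Myl3, -1.497 to 0.213 for Myl9 and -0.051 to 0.084 for Mylk. For S105A minus WT averaged over treatments the range was -0.003 to 0.38 for Myl3 and -0.753 to 0.102 for Myl9. For the difference of the PE effects the range was -0.641 to 0.481 for Myl1, -0.117 to 0.425 for Myl2, -0.121 to 0.644 for Myl3, -1.487 to 0.223 for Myl9, -0.22 to 0.884 for Mylk3 and -0.008 to 0.276 for Myl7. Without arrays 3 and 7 together the values with a changed sign were Myl1 -0.037, Myl4 -0.15, Mylk3 0.082 for PE in WT; Myl7 0.044, Myl9 -0.064 for PE in S105A; Mylk3 0.01 for PE averaged over genotypes; Myl1 0.091, Myl3 -0.027, Mylk -0.009 for S105A minus WT with PE; Myl1 0.481, Myl2 -0.075, Myl3 -0.085, Mylk3 -0.144 for the difference of the PE effects. Further quantile normalization gave 0.019 for Myl9 in S105A minus WT untreated. The cause of these shifts was not tested. Leaving out the lowest 40% of genes removed Myl7, which has no value there.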
